A study of Mus musculus with 8 samples.

Results

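The 9 genes Npr3, Nfatc1, Hapln1, Gata5, Cdh11, Tbx20, Cytl1, Smoc1 and Nrg1, chosen by name as genes used to mark the endocardium, were followed in RNA sequencing of cells that flow cytometry sorted as endothelial out of whole mouse embryos at E15.5, where E gives the embryonic day. All 9 were among the 23337 genes of the deposited table. Per the labels, the mice carried Cdh5-CreERT2(PAC), a tamoxifen-inducible Cre recombinase under the endothelial gene Cdh5, together with Rosa26fsTRAP, a Cre-dependent allele at the Rosa26 locus. The genotype field nevertheless reads wild type, and both groups share these alleles. In the tamoxifen group the pregnant female received tamoxifen by gavage at E12.5, and in the other group she did not, so tamoxifen and any Cre activity it induces cannot be told apart. The labels list 4 samples per group and do not say which marker was used for sorting, or whether embryos were pooled or came from separate litters. Each p-value thus reflects no more than how much these libraries varied, part of which may be technical.

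The endocardium is the endothelial lining of the heart. It sends signals such as neuregulin to the underlying muscle to drive trabeculation, and in the cushions it gives rise to the mesenchyme of the valves in a hyaluronan-rich matrix. No heart was dissected here, so endocardial cells could be only a part of a sort taken from the whole embryo, and several of the 9 genes are also known outside the heart: Cdh11 in mesenchyme, Hapln1 and Cytl1 in cartilage, and Nrg1 in neurons. In bulk libraries, fewer cells of a type and less RNA per cell cannot be told apart.

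The table's header is 1 field short of its rows, so its names can sit over the last 8 or the first 8 value columns. Counting the gene name as column 1, both readings put untreated names over columns 3 to 5 and tamoxifen names over columns 7 to 9. The comparison used these 6 libraries, numbered from the left within each group as no_tamoxifen_1 to 3 and tamoxifen_1 to 3. Columns 6 and 10 change group or lose their name between the readings and are given apart. The 6 libraries held 12212472 to 19908404 reads in genes, of which the ribosomal RNA precursor Rn45s took 29.4% to 38.7%. Column 6 stood apart, with 8695745 reads and summed endothelial markers of 4608 normalised reads, against 10610 to 26758 in the 6 libraries. Its summed macrophage markers were at 922, against 37482 to 60298, and its mesenchymal markers at 485534, against 2256 to 93994. Column 10 had 22593195 reads and an endothelial sum of 6648, also below all 6 libraries. Its macrophage sum of 48735 and mesenchymal sum of 3573 lay within their ranges. Values are the authors' normalised read counts (normalised reads), in which 1 read was worth 0.701 to 1.08 in the 6 libraries.

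The promoters of 5 of the 9 genes, Npr3, Hapln1, Gata5, Tbx20 and Cytl1, were found in the RefSeq promoter set of GRCm38.p6. The 250 bases before the start site were searched on both strands for GATA (reverse complement TATC), the NFAT core GGAAA (reverse complement TTTCC) and the T-box half-site GGTGTG (reverse complement CACACC), the factor families of Gata5, Nfatc1 and Tbx20. Matches are in capitals. The promoter of Cytl1, which held the most matches, is shown beside that of Npr3, 1 of 3 that held none. The Npr3 sequence lies at chr15:11907372-11907621 on the minus strand and the Cytl1 sequence at chr5:37735269-37735518 on the plus strand, both written 5′ to 3′.
Npr3: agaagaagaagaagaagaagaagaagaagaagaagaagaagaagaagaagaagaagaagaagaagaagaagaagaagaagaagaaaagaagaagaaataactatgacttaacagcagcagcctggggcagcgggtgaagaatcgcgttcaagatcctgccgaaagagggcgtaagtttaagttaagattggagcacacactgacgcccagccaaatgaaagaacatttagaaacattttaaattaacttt
Cytl1: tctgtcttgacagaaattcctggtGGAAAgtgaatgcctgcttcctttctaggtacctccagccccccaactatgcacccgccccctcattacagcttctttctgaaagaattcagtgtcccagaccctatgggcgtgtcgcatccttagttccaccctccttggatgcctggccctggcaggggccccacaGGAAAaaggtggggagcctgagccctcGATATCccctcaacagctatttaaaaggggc

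Cytl1 held the NFAT core at 2 places and 1 GATATC, in which GATA and TATC overlap. Hapln1 held the NFAT core at 1 place. Its window, chr13:89540386-89540635 on the plus strand, lies after the gene start at 89539796 in the annotation used below for gene positions. By that annotation the match is inside the gene and not upstream of it. The windows of Npr3, Gata5 and Tbx20 held none of the 3 motifs. Of all 27025 promoters of this length, 54.1% held GATA, 55.6% the NFAT core and 16.2% the T-box half-site, so each match is a description of these letters only.

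In level per length, Nfatc1 stood above the other 8 genes. It was at 143 ± 11.4 normalised reads per kilobase of exon (SD, n = 6 libraries), against 960 ± 308 for the endothelial cadherin gene Cdh5. Hapln1 followed at 46.2 ± 17.4 per kilobase, and its range of 27.8 to 75.2 did not reach the lowest Nfatc1 value of 121. Then came Cdh11 at 16.5 ± 15.9, Nrg1 at 11.1 ± 1.65, Smoc1 at 8.36 ± 4.23, Npr3 at 7.45 ± 3.38 and Cytl1 at 5.46 ± 5.49 per kilobase. From Hapln1 downward the range of each gene overlapped that of the next. Gata5 (0.483 ± 0.661) and Tbx20 (0.431 ± 0.435) were lowest, and their ranges overlapped too. Detection was uneven across the set. Of the 9 genes 6 reached the mean of 10 normalised reads required for testing, and Gata5, Tbx20 and Cytl1 did not. Reaching that mean does not show that the reads came from endocardium. Most markers of heart muscle were low in the 6 libraries, with 11 of 15 cardiomyocyte genes under that mean. Among these, Myl3 and Sln were at 0 in every no-tamoxifen library. Ttn, Ryr2, Pln and Myl4 reached that mean. In the no-tamoxifen libraries Ttn stood at 141, 144 and 135 normalised reads and Ryr2 at 64.2, 59.4 and 70.8. In the tamoxifen libraries Ttn stood at 203, 126 and 82.1 and Ryr2 at 56.3, 62.7 and 59.6. All 15 genes summed to 292, 293 and 289 in the no-tamoxifen libraries, against 352, 321 and 222 in the tamoxifen libraries.

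None of the 6 tested genes passed the test between groups. In limma on log2(value + 1), with Benjamini-Hochberg adjustment over all 13480 genes tested, 0 of 6 were called, against 0.0445% of all genes. At an unadjusted p under 0.05 there were 2 of 6, Smoc1 and Cdh11, against 9.01% of all genes. edgeR and DESeq2 on the recovered reads also called 0 of 6, with 2 at an unadjusted p under 0.05 each, and DESeq2 called 2.04% of all genes in either direction and 1.83% as higher with tamoxifen. The median log2 fold change was 0.58 over the 6 genes and -0.02 over all genes tested. All log2 fold changes below are tamoxifen minus no tamoxifen after adding 1 to each value, so changes of low genes come out too small.

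**Figure D1:**
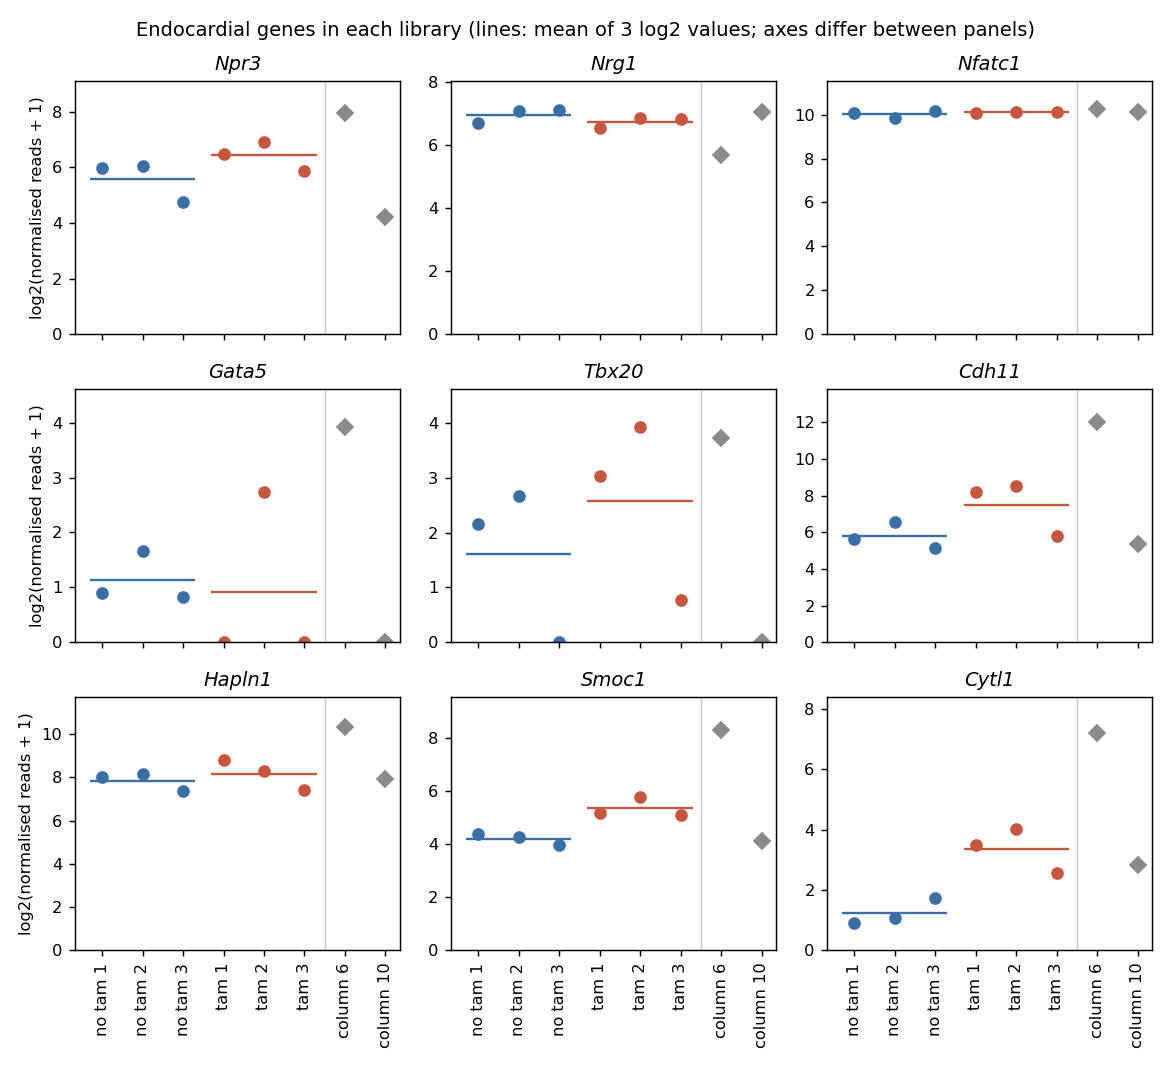
The 9 endocardial genes in each library as log2(normalised reads + 1); dots are the 3 libraries without tamoxifen (blue) and the 3 with it (red), lines the mean of their log2 values, and grey diamonds columns 6 and 10, with a different axis range in each panel. Smoc1 and Cytl1 are the genes whose red dots all lie above the blue ones, and 7 of 9 genes, 5 of the 6 tested, have their diamond of column 6 above all 6 dots, against 37.4% of all tested genes.

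Among signalling genes, Npr3 encodes the clearance receptor that removes natriuretic peptides. It was at 62.5, 64.8 and 25.9 normalised reads in the 3 libraries without tamoxifen and 89.1, 120 and 57.5 in those with it. Tamoxifen_1 and tamoxifen_2 lay above all libraries without tamoxifen, while tamoxifen_3 lay inside their range. The group means were 51.1 ± 21.8 and 88.8 ± 31.1 (SD, n = 3 each), and the log2 fold change was 0.83 ± 0.41 (SE; limma adjusted p = 0.577), with a 95% interval of -0.11 to 1.77. Npr3 lies on chromosome 15 at 11839896 to 11907287 of GRCm38, on the minus strand, and overlaps the noncoding gene Gm5144 on the other strand.

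The signalling receptors of the same peptides had other patterns. Npr1, the guanylyl cyclase receptor of atrial and brain natriuretic peptide, was at 581 to 989 without tamoxifen and 478 to 1137 with it (0.08 ± 0.32, SE; limma adjusted p = 0.961). Npr2, the receptor of C-type natriuretic peptide, was at 38.2, 41.1 and 31.2 without tamoxifen and 105, 179 and 52.6 with it, so its groups did not overlap (1.42 ± 0.41; limma adjusted p = 0.462). Per kilobase, Npr1 was at 99.9 to 238 and Npr3 at 2.76 to 12.8 in the same 6 libraries. The ligand genes were too low to test. Nppa was at 4.34, 8.64 and 5.33 without tamoxifen and 0, 4.75 and 4.91 with it, Nppc at 0, 0 and 1.52 against 10.2, 6.65 and 0, and Nppb at 0 in 3 of the 6 libraries. Prkg1, which encodes a cGMP-dependent kinase downstream of these receptors, had a log2 fold change of 0.64 ± 0.49. Of the 9 other genes listed for this system 4 were tested, 0 were called in either direction, and the median log2 fold change was 0.36.

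Nrg1 encodes neuregulin 1, the endocardial ligand that acts on ErbB receptors of heart muscle. It was at 102, 133 and 136 without tamoxifen and 92.2, 116 and 112 with it. Those groups overlapped, with means of 124 ± 18.6 and 107 ± 12.6 (SD, n = 3 each) and a log2 fold change of -0.21 ± 0.20 (SE; limma adjusted p = 0.763), with an interval of -0.66 to 0.24. Nrg1 was the 1 tested gene of the set with a negative value. It spans chromosome 8 at 31814551 to 32884029 on the minus strand and overlaps Gm26578 and Gm22140. Among its receptors Erbb4 was at 0 to 1.90 normalised reads in the 6 libraries, while Erbb2 was at 64.8 to 99.8 without tamoxifen and 165, 215 and 47.0 with it. Erbb3 was at 21.7 to 40.0 and 21.7 to 36.9. Of the 12 other genes of neuregulin and ErbB signalling 8 were tested and 0 were called, with a median of 0.19. The lowest p belonged to the feedback inhibitor gene Errfi1 (0.55 ± 0.16, SE; limma adjusted p = 0.462), followed by the ligand genes Areg (0.45 ± 0.29) and Nrg4 (0.19 ± 0.18).

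Among transcription factors, Nfatc1, which encodes a calcineurin-activated factor needed for valve formation, had the smallest coefficient of variation of the tested 6. It was at 1074, 907 and 1151 without tamoxifen and 1073, 1114 and 1102 with it. The tamoxifen values lay inside the range of the others. The highest of the 6 libraries was 1.27 times the lowest, and 11.6% of the tested genes had a smaller coefficient of variation over the 6 libraries than its 7.92%. Its log2 fold change was 0.08 ± 0.11 (SE; limma adjusted p = 0.866), with an interval of -0.19 to 0.34. In the columns given apart Nfatc1 was at 1231 in column 6 and 1104 in column 10. Macrophage markers summed to 922 and 48735 there, endothelial markers to 4608 and 6648, and osteoclast markers to 2065 and 1618. The part of these markers in the Nfatc1 values was not tested. Nfatc1 lies on chromosome 18 at 80606205 to 80713071 on the minus strand, with AC123818.1 antisense to it. Whether counting used the strand is not stated, so how reads that fall in both genes were counted is not known. The same holds for Npr3, Hapln1, Gata5 and Nrg1, which also overlap genes on the opposite strand.

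All 11 other genes of calcineurin and NFAT signalling were tested and 0 were called, with 4 positive, 7 negative and a median of -0.08. The catalytic subunit gene Ppp3cc (0.80 ± 0.37, SE; limma adjusted p = 0.571), Nfatc3 (0.29 ± 0.15) and Nfatc4 (1.16 ± 0.75) had the lowest p values. The calcineurin target Rcan1 was at 388 to 520 without tamoxifen and 409 to 460 with it.

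Gata5 encodes a zinc finger factor of the endocardium. It had 1, 2 and 1 whole reads without tamoxifen and 0, 6 and 0 with it. Only tamoxifen_2 held more than 3 reads, and a library with no read allows up to 3, so no fold is given. Its antisense gene Gata5os overlaps it on chromosome 2 at 180325133 to 180334699. The related Gata4 was at 35.6, 35.6 and 25.1 without tamoxifen and 77.9, 124 and 23.8 with it, and Gata6 at 25.2, 22.7 and 13.7 against 56.3, 60.8 and 17.5. Both thus had tamoxifen_1 and tamoxifen_2 above every library without tamoxifen and tamoxifen_3 below or within their range (0.93 ± 0.54 and 0.95 ± 0.51, SE; limma adjusted p = 0.623 and 0.601).

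Tbx20 encodes a T-box factor of cushion endocardium and heart muscle. It had 4, 5 and 0 reads without tamoxifen and 7, 15 and 1 with it, or 2.96 ± 2.74 and 7.37 ± 6.78 normalised reads (SD, n = 3 each), and the groups overlapped. It lies on chromosome 9 at 24718138 to 24774303 on the minus strand. Nkx2-5, the homeobox gene of heart muscle that works with Tbx20 and Gata4, was at 0 in all 3 libraries without tamoxifen and at 0, 5.70 and 0.701 with it. Of the 14 other cardiac GATA, T-box and partner genes 8 were tested and 0 were called, with a median of 0.41. The GATA cofactor gene Zfpm1 had the lowest p (0.71 ± 0.27, SE; limma adjusted p = 0.504).

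Among surface and matrix genes, Cdh11, which encodes a type II cadherin of cushion and other mesenchyme, had the largest fold change of the tested 6. It was at 49.5, 92.9 and 34.2 without tamoxifen and 288, 364 and 54.0 with it. The 2 high libraries were tamoxifen_1 and tamoxifen_2, and tamoxifen_3 lay inside the range without tamoxifen. The group means were 58.9 ± 30.4 and 235 ± 162 (SD, n = 3 each). The log2 fold change from the mean log2(value + 1) was 1.71 ± 0.68 (SE; limma adjusted p = 0.519), or 3.26-fold on that scale with a 95% interval of 1.11 to 9.57. Cdh11 lies on chromosome 8 at 102632095 to 102785642 on the minus strand and overlaps 4 other annotated genes on its own strand. The other cadherin gene with a low p, Cdh24, was at 37.8 to 56.3 without tamoxifen and 83.5 to 131 with it, without overlap (1.07 ± 0.26, SE; limma adjusted p = 0.427).

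Hapln1 encodes the link protein that fastens proteoglycans such as versican to hyaluronan. It was at 262, 283 and 164 without tamoxifen and 444, 311 and 172 with it. The groups overlapped through tamoxifen_3, their means were 236 ± 63.3 and 309 ± 136 (SD, n = 3 each), and the log2 fold change was 0.32 ± 0.34 (SE; limma adjusted p = 0.798). Hapln1 lies on chromosome 13 at 89539796 to 89611652 on the plus strand, overlaps the pseudogene Gm8546 and lies beside the versican gene Vcan at 89655312 to 89742509 on the minus strand.

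Vcan and Has2 had larger fold changes than Hapln1. Vcan was at 108, 111 and 103 without tamoxifen and 1004, 1129 and 267 with it, so even tamoxifen_3 lay above the range without tamoxifen (2.63 ± 0.47, SE; limma adjusted p = 0.227). The hyaluronan synthase gene Has2 was at 2.60, 2.16 and 2.28 without tamoxifen and 59.4, 46.6 and 7.01 with it (3.09 ± 0.80; limma adjusted p = 0.460), and Has3 was at 26.0 to 35.0 against 54.2 to 73.8 (0.99 ± 0.27). The hyaluronan receptor gene Cd44 was at 4117 to 4968 without tamoxifen and 2989 to 3884 with it (-0.34 ± 0.13; limma adjusted p = 0.523). Of the 13 other hyaluronan matrix genes that were found, 10 were tested and 0 were called, with a median of 0.69. In 5 of the 10 the groups did not overlap, 4 of them higher with tamoxifen, against 13.9% of all tested genes in either direction and 6.24% in that direction. The list was chosen with earlier results of these data known, so this count is a description only.

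**Figure D2:**
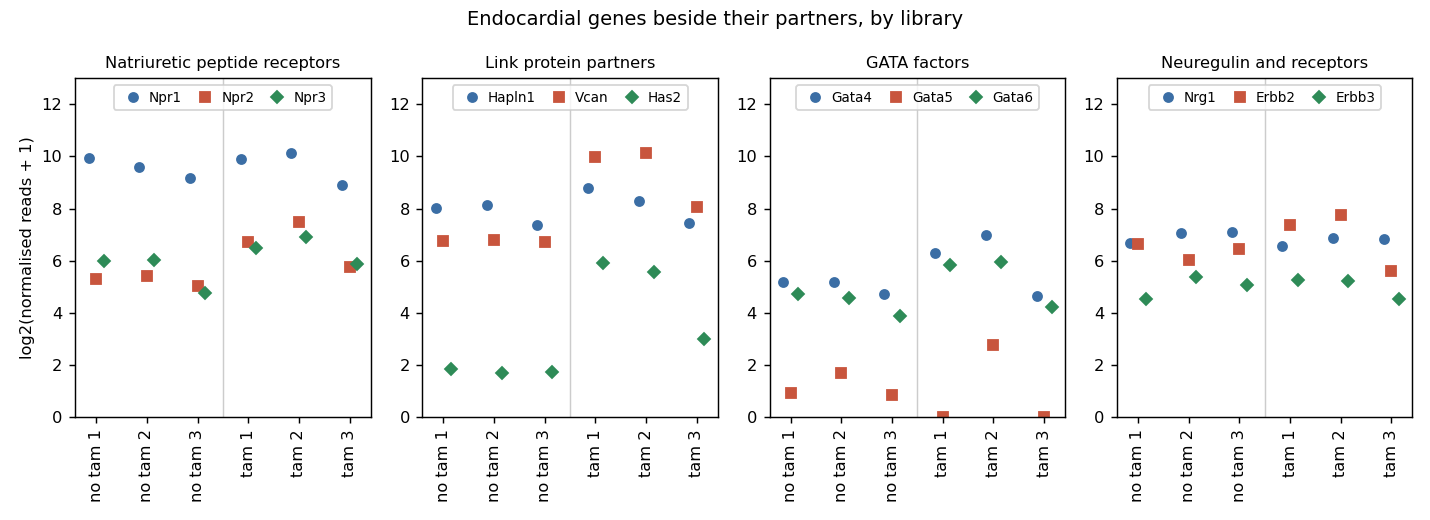
Log2(normalised reads + 1) of Npr3, Hapln1, Gata5 and Nrg1 beside genes of the same system in each of the 6 libraries, 1 point per gene and library. Vcan and Has2 are above all 3 libraries without tamoxifen in each tamoxifen library, whereas Hapln1, Npr3 and Nrg1 overlap between groups.

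Smoc1 encodes a secreted SPARC-related protein that binds calcium and modulates BMP signalling. It was at 20.0, 18.4 and 14.5 without tamoxifen and 34.8, 54.2 and 33.7 with it. All tamoxifen libraries lay above all others. Smoc1 was the 1 gene of the tested 6 whose groups did not overlap, against 13.9% of all tested genes. The means were 17.6 ± 2.83 and 40.9 ± 11.5 (SD, n = 3 each). On the log2(value + 1) scale the fold change was 1.15 ± 0.34 (SE; limma adjusted p = 0.462), or 2.22-fold with a 95% interval of 1.29 to 3.80. It did not pass the test, and Smoc1 was number 256 of all tested genes by p. Smoc1 lies on chromosome 12 at 81026808 to 81186414 on the plus strand, with the microRNA gene Mir3067 inside it. Its paralog Smoc2 was at 6.94, 6.48 and 4.57 without tamoxifen and 157, 268 and 23.1 with it (3.87 ± 0.79, SE; limma adjusted p = 0.315). Fstl1, of the same family, was at 463 to 853 without tamoxifen and 2043, 2408 and 451 with it (1.01 ± 0.57). Of the 12 other SPARC family and type II cadherin genes 7 were tested and 0 were called, with a median of 0.37.

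Cytl1 encodes a small secreted cytokine-like protein. It had 1, 1 and 3 reads without tamoxifen and 10, 16 and 7 with it, or 1.41 ± 0.763 and 10.1 ± 5.15 normalised reads (SD, n = 3 each). Its groups did not overlap, but its mean of 5.76 over the 6 libraries kept it out of the test. With no filter on low values its log2 fold change was 2.13 ± 0.55 (SE; limma adjusted p = 0.416). Cytl1 lies on chromosome 5 at 37735519 to 37739820 on the plus strand, with no overlapping gene.

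The genes did not vary as 1 block. In 6 of all 9, Npr3, Hapln1, Cdh11, Tbx20, Cytl1 and Smoc1, both tamoxifen_1 and tamoxifen_2 were above every library without tamoxifen, 4 of them among the 6 tested genes, against 18.6% of all tested genes. Compared with the mean without tamoxifen, the mean of these 2 libraries was 1.59 times as high for Hapln1, 2.05 times for Npr3, 2.53 times for Smoc1 and 5.54 times for Cdh11. In tamoxifen_3 the same ratios were 0.727 for Hapln1, 1.13 for Npr3, 1.91 for Smoc1 and 0.917 for Cdh11. Of all 9 genes, tamoxifen_3 was inside the range without tamoxifen for 6, above it for Smoc1 and Cytl1, and at 0 reads for Gata5, where a library with no read allows up to 3.

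**Figure D3:**
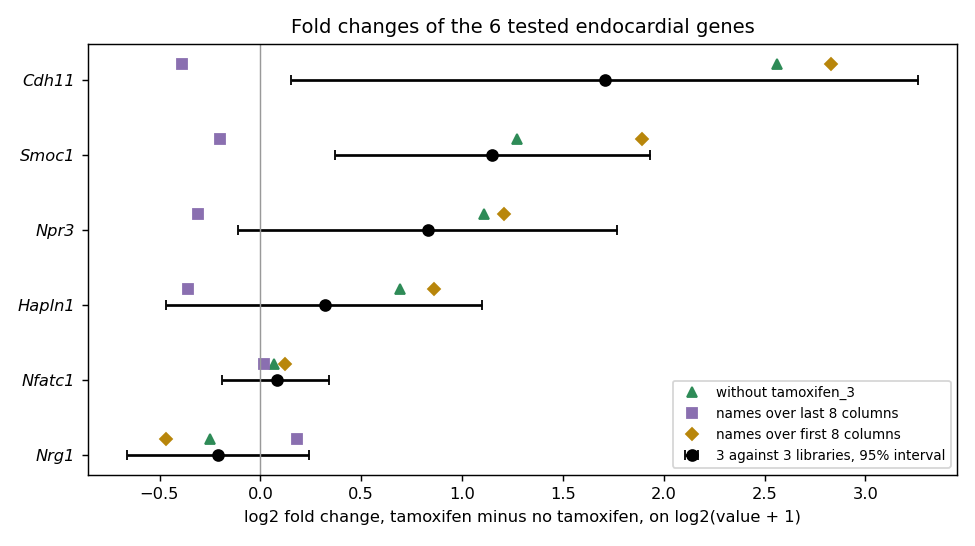
Log2 fold changes of the 6 tested genes, tamoxifen minus no tamoxifen; black points and bars are limma estimates with 95% intervals from 3 against 3 libraries, and coloured marks are the estimates without tamoxifen_3 or with either placement of the header names. The placement over the first 8 columns was fitted without the first value column, which it names as untreated. Cdh11 is at 1.71 in the comparison, 2.56 once tamoxifen_3 is left out and -0.39 when names sit over the last 8 columns.

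Leaving out tamoxifen_3 changed the calls for 2 genes. Without that library Cdh11 was higher with tamoxifen at 2.56 ± 0.32 (SE; limma adjusted p = 5.21e-05) and Smoc1 at 1.27 ± 0.39 (limma adjusted p = 0.0485), so 2 of 6 were called, against 10.7% of all genes tested and 7.22% in that direction. The estimate of Smoc1 itself moved little, from 1.15 ± 0.34 (limma unadjusted p = 0.00894) with tamoxifen_3 to 1.27 ± 0.39 (limma unadjusted p = 0.00513) without it. Calls over all genes rose from 6 to 1442 in the same step, which eases the adjusted threshold. Npr3 (1.11 ± 0.36; limma adjusted p = 0.059) and Hapln1 (0.69 ± 0.22; limma adjusted p = 0.0627) did not pass without tamoxifen_3. Other libraries lowered the values: Hapln1 was at 0.01 without tamoxifen_1, Npr3 at 0.41 without no_tamoxifen_3 and Cdh11 at 1.19 without tamoxifen_2. Placing the names over the last 8 value columns puts column 6 among the libraries without tamoxifen and column 10 among those with it. Npr3, Hapln1, Cdh11, Smoc1 and Nrg1 then changed sign and 0 of 6 were called. Adding column 10 alone gave 0.28 for Npr3, 0.26 for Hapln1, 1.17 for Cdh11, 0.84 for Smoc1 and -0.13 for Nrg1. Names over the first 8 value columns add column 6 to the tamoxifen group. They also name the first value column as untreated, but that column was not used, so the fit covers only part of this reading. Its values were 1.21 for Npr3, 0.86 for Hapln1, 2.83 for Cdh11, 1.89 for Smoc1 and -0.47 for Nrg1, and 0 of 6 were called.

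Cell type markers moved with the same libraries. All 13 mesenchymal and fibroblast genes and all 13 cartilage genes found in the table were above every library without tamoxifen in tamoxifen_1 and tamoxifen_2. The summed mesenchymal level was 2256 to 4854 normalised reads without tamoxifen, 60618 in tamoxifen_1, 93994 in tamoxifen_2 and 5001 in tamoxifen_3. Cartilage markers summed to 825 to 1051, 21844 and 18635, and 1105 in the same order, and mural markers to 680 to 1060, 2255 and 2406, and 783. None of the genes in these 3 lists was at 0 in all 6 libraries. The summed endothelial level was 15528 to 24858 without tamoxifen and 25793, 26758 and 10610 with it. Macrophage and leukocyte markers went the other way, at 49455 to 56927 without tamoxifen, 39624 in tamoxifen_1, 37482 in tamoxifen_2 and 60298 in tamoxifen_3. All 14 of these genes had a negative log2 fold change and 0 were called, and their sum was above the endothelial sum in each of the 6 libraries. The part of these markers in the values of Cdh11, Hapln1, Npr3, Smoc1 and Cytl1 was not tested.

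The other lists differed among themselves. Osteoclast markers, considered because Nfatc1 is also known from that cell type, summed to 1963 to 2123 without tamoxifen and 1624 to 1875 with it. Neuronal and glial markers, considered for Nrg1, summed to 42.5 to 61.6 without tamoxifen and 110, 90.3 and 43.5 with it. Like the mesenchymal sum, theirs was above every library without tamoxifen in tamoxifen_1 and tamoxifen_2, though 10 of 12 genes were under a mean of 10. Epithelial markers summed to 167 to 304 and 201 to 276, and epicardial and mesothelial markers to 38.2 to 68.1 and 10.5 to 69.4. No gene of any of these lists was called.

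**Figure D4:**
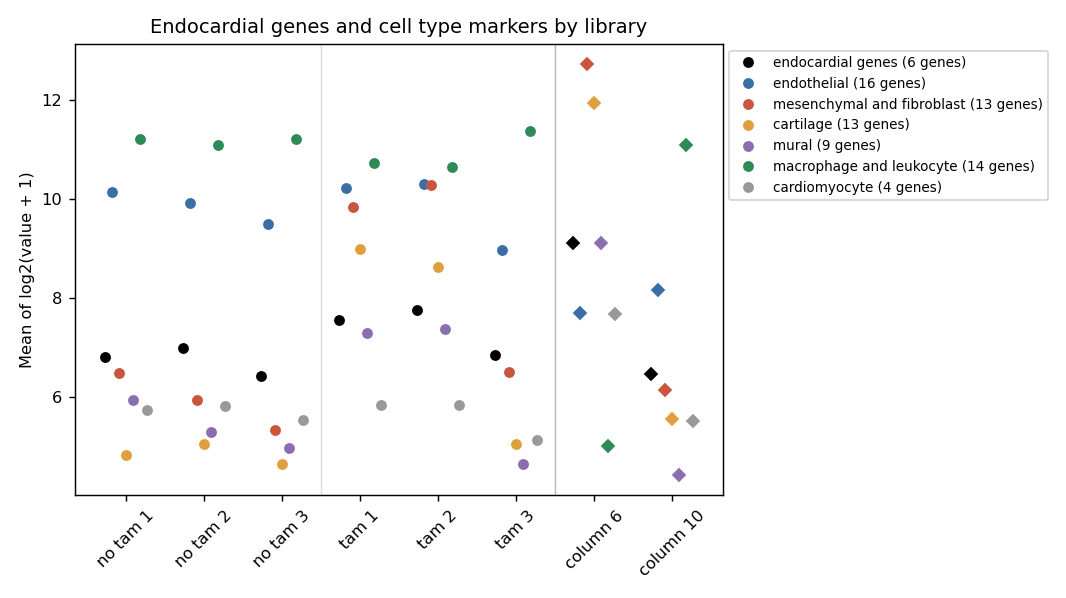
Mean of log2(value + 1) over the 6 tested endocardial genes and over the tested genes of 6 cell type lists, 1 dot per list in each of the 6 libraries and diamonds for columns 6 and 10. The endocardial mean is 6.41 to 6.99 without tamoxifen and 7.54, 7.75 and 6.85 with it, and the mesenchymal and cartilage means are far higher in tamoxifen_1, tamoxifen_2 and column 6 than elsewhere.

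Regulators of the transition from endocardium to cushion mesenchyme had a median of 0.27 over 17 tested of 18 genes, with 0 called. Bmp2, a myocardial inducer of that transition, was at 212 to 255 without tamoxifen and 273 to 334 with it, without overlap (0.38 ± 0.15, SE; limma adjusted p = 0.505). Next by p were the ligand gene Tgfb3 (1.23 ± 0.48) and the coreceptor gene Tgfbr3 (0.79 ± 0.37). Snai1 and Snai2, which encode repressors of endothelial junction genes, were at 47.1, 53.2 and 12.6 and at 21.5, 20.9 and 2.10 with tamoxifen, against 5.33 to 25.2 and 10.7 to 17.3 without it. Of 13 other genes used as endocardial markers 11 were tested and 0 were called, with a median of -0.02. Heg1 was at 611 to 642 without tamoxifen and 1166, 1225 and 457 with it (0.48 ± 0.33; limma adjusted p = 0.678). Foxp1 (-0.15 ± 0.11) and Klf4 (0.17 ± 0.13) had the next lowest p values.

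Likeness of pattern was measured as the root mean square difference between log2 profiles centred over the 6 libraries, among 10247 other genes with a mean of at least 50. Nearest to Cdh11 were the extracellular matrix genes Thbs4 (0.185) and Ccdc80 (0.200), and nearest to Npr3 were Edil3 (0.208) and Mxra8 (0.228). Thbs4 was at 20.5 to 46.5 without tamoxifen and 212, 219 and 34.4 with it. Nearest to Hapln1 were Igfbp3 (0.149) and Uggt2 (0.150), and nearest to Smoc1 were the lens filament gene Bfsp2 (0.205) and the collagen prolyl hydroxylase gene P4ha2 (0.211). Outside the 6 libraries the likeness to Bfsp2 did not hold, as column 6 had 2.03 normalised reads of it and 321 of Smoc1, while P4ha2 was at 1300 there. Nearest to Nfatc1 were Zdhhc18 (0.0198) and Scfd2 (0.0289), and nearest to Nrg1 were Svip (0.0376) and Acsl1 (0.0476). The likeness of Nfatc1 to Zdhhc18 did not hold in column 6 either. Nfatc1 was at 1231 there and Zdhhc18 at 212, against 501 to 650 for Zdhhc18 in the 6 libraries, while Scfd2 was at 273 there.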

How the data were processed

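The deposited table holds a signal unit: the authors' normalised read counts per gene symbol, signal values that were whole multiples of 1 step per column in 100% of values (tolerance 0.001 reads), so whole reads were recovered. The submitters' processing notes list STAR, HTSeq 0.11.2 and DESeq2 and the builds hg38 and mm10 without their roles. 1 value column, the first after the gene name, was not used, although 1 placement of the header names calls it untreated.

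limma 3.58.1 (R 4.3.3) compared log2(value + 1) between groups for genes averaging 10 or more normalised reads. Variances were moderated with a trend on the mean, no covariate entered, and Benjamini-Hochberg adjusted p-values were called at 0.05. edgeR 4.0.16 and DESeq2 1.42.0 on recovered reads were alternatives, 2 of 19. In 5 simulations with 200 changed genes each, the limma comparison of 13480 genes recovered 49.0% of genes changed 2-fold and 98.2% changed 4-fold. Every simulated gene had the same dispersion, and the libraries did not differ in cell type markers. These rates thus need not hold for genes as variable as Cdh11, whose coefficient of variation was 96.5% against a median of 16%. In the libraries themselves Smoc2 was not called at a log2 fold change of 3.87 ± 0.79 (SE). Depth was 12212472 to 19908404 reads per library, and intervals on reads cover counting error only.

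The 9 genes and the 19 lists, 231 of whose 238 symbols were found, were chosen with earlier results of these data known, and lists are described, not tested. All 9 genes are named, and of each pathway list the 3 genes of lowest p, with partners of a gene given by value. Likeness left out predicted, clone and RIKEN names. Cd44, Rcan1, Snai1, Snai2, Nkx2-5, the promoters shown and the column values beside likeness were picked after values were seen. Lengths and positions are from GENCODE M21 on GRCm38, the assembly also called mm10. The main comparison did not pair libraries by number, and whether the numbers mark pairs is not known.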

Additional observations from a re-analysis of the deposited data

Results flagged for a closer look

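Column 6, which entered no comparison, held 6 of the 9 genes above the highest library without tamoxifen by more than its own counting error (exact Poisson 95% intervals). The value without tamoxifen was taken as fixed, although it rested on very few reads for Gata5 and Cytl1. Cdh11 was at 4107 normalised reads there (3930 to 4290), against at most 92.9 without tamoxifen and 364 in any of the 6 libraries. Hapln1 was at 1292 (1193 to 1396) against 283, Smoc1 at 321 (273 to 376) against 20.0, Npr3 at 244 (202 to 292) against 64.8, and Cytl1 at 146 (115 to 184) against 2.28. Gata5 was at 14.2 (5.73 to 29.3) from 7 reads, against 2.16. Of the 6 tested genes 5 were above all 6 libraries in column 6, against 37.4% of all tested genes; the exception was Nrg1 at 50.9, below all 6. In column 10, Cytl1 was at 6 (2.88 to 11) from 10 reads, against at most 2.28 without tamoxifen, while Npr3 there was at 17.4 and Cdh11 at 39.6. Cell type markers of column 6 also differed from the other libraries, and their part in these values was not tested.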

How the results depend on the processing

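The count of 0 called endocardial genes was the same in 18 of 19 alternatives. Leaving out each library in turn gave 0 to 2, with 2 without tamoxifen_3. Over all genes the 6 calls became 275 with DESeq2, 3 in limma without the trend, 0 when names were placed over the first 8 columns (555 at an unadjusted p under 0.05, limma), and 2 to 1442 with 1 library left out. The fit over the first 8 columns left out the first value column, which that placement names as untreated. With the names over the last 8 columns the log2 fold change of Npr3 was -0.31, Hapln1 -0.36, Cdh11 -0.39, Smoc1 -0.20 and Nrg1 0.18; the cause was not tested. Nfatc1 ranged from -0.020 (without no_tamoxifen_2) to 0.15 over the leave-outs, Npr3 from 0.41 to 1.11, Hapln1 from 0.01 to 0.69, Cdh11 from 1.19 to 2.56, Smoc1 from 0.93 to 1.27 and Nrg1 from -0.34 to -0.11. The replicate block gave 21 calls over all genes and 0 of the 6 endocardial genes (limma adjusted p = 0.105 to 0.840). With the block the SE was 0.34 for Cdh11, 0.25 for Npr3 and 0.18 for Hapln1, against 0.68, 0.41 and 0.34 without it. The SE changed little for Smoc1 (0.37 against 0.34), Nfatc1 (0.12 against 0.11) and Nrg1 (0.19 against 0.20). Same-numbered libraries correlated at 0.195, 0.036 and 0.345 in their deviations from the group means, and not every library correlated best with its own number. So few libraries cannot decide whether the numbers mark pairs. Scaling moved the median of all genes by under 0.1. With 1 read worth 0.701 to 1.08, depth limits Gata5, Tbx20 and Cytl1.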
